A study of Mustela putorius furo with 10 samples.

Results

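The genes described here are 10 regulators and effectors of thermogenesis: PM20D1, the uncoupling proteins UCP1, UCP2 and UCP3, the coactivators PPARGC1A and PPARGC1B, and DIO2, CIDEA, PRDM16 and ADRB3. They were chosen by symbol, through the RefSeq ferret gene name of the target sequence that each probe of the array carries. Of the 10 symbols, 8 had at least 1 target sequence on the array, out of 37142 genes or unnamed sequences in all. DIO2 and PRDM16 had none under these names and were not analysed here. The study asked whether blood cells register cold exposure. It compared peripheral blood mononuclear cells (PBMC), the lymphocytes and monocytes that a Ficoll gradient separates from blood, of male ferrets aged 3 months that either stayed at 22 °C (control, 6 arrays) or were acclimatised to 4 °C for 1 week (cold, 4 arrays). Each group had 7 animals, and each array used here carried the RNA of 1 ferret, so that p-values measure the spread between these animals. The cold animals lived singly and the sources used here do not say so of the controls, so that temperature and housing cannot be told apart.

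In brown and beige fat, noradrenaline acts through the β3-adrenergic receptor and cyclic AMP to release fatty acids, which activate UCP1, a carrier that lets protons return across the inner mitochondrial membrane without making ATP, so that heat is released. The coactivators PPARGC1A and PPARGC1B drive the formation of mitochondria, PRDM16 sets the identity of brown fat cells, DIO2 makes active thyroid hormone inside the cell, and CIDEA is a lipid droplet protein used as a marker of brown and beige fat. PM20D1 is a secreted enzyme that joins fatty acids and amino acids into N-acyl amino acids, lipids that can uncouple mitochondria without UCP1.

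Every array held 2 RNAs. The green dye Cy3 carried the PBMC of the ferret, and the red dye Cy5 carried a reference pool of PBMC and other tissues, the same on every array. The log2 ratio of Cy3 to Cy5 is the main quantity. It was centred within each array along the intensity range (loess), so that a value of 0 is the middle of spots of like brightness and does not stand for equal signal of PBMC and pool. No dye swap was made, so a ratio within an array is open to dye bias, whereas the same bias enters both groups. A spot is called well above background by the scanner software, and a gene is called detected on an array where at least 50% of its spots are. Of all spots of an array, 50.4 to 63.5% passed this call in Cy3. In Cy5 the share was 27.0 to 54.9% on the control arrays and 40.5 to 64.0% on the cold arrays, although the pool was the same RNA. Because of this, each gene is also given by its Cy3 intensity alone, on a log2 scale after quantile normalization. In bulk cells, fewer cells of a type and less RNA per cell cannot be told apart.

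The 8 genes fell into groups by detection. UCP2, PPARGC1B and CIDEA were detected in the PBMC on all 10 arrays, UCP3 on 9, PM20D1 on 8, ADRB3 on 7, PPARGC1A on 3 and UCP1 on none. UCP3 sat at the limit of this call, with a median of 50% of its Cy3 spots on the control arrays and 53.1% on the cold arrays. On no array did all UCP3 spots pass in Cy3. In the pool, UCP2 and CIDEA were detected on all 10 arrays, PPARGC1B on 9, UCP3 and ADRB3 on 8, PPARGC1A on 7, UCP1 on 5 and PM20D1 on 1. By this call PM20D1 was seen more often in the blood cells than in the pool, and UCP1 more often in the pool. UCP1 depended on the criterion: at a doubled local background it passed in Cy3 on 9 arrays and in Cy5 on 4, and PM20D1 on 10 and 3. For a call of cold against control, a probe had to be above background in Cy3 on at least 4 arrays, which all genes but UCP1 passed with at least 1 probe.

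**Figure D1:**
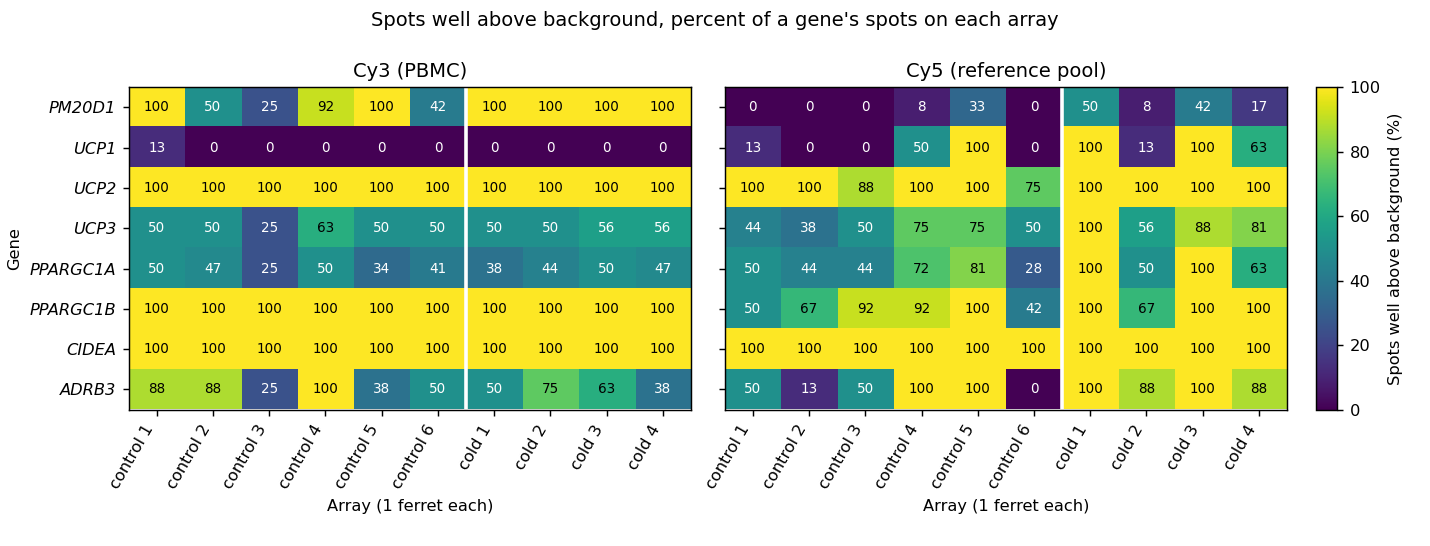
Share of the spots of each gene that the scanner software called well above background, in percent, on each of the 10 arrays, for Cy3 (PBMC, left) and Cy5 (reference pool, right); a row is a gene, a column an array, and the white line parts the 6 control from the 4 cold arrays. UCP2, PPARGC1B and CIDEA reach 100% in Cy3 on every array, and UCP1 reaches 12.5% on 1 control array and 0 on the others.

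PM20D1 rose in the PBMC of cold-exposed ferrets in Cy3, the channel of the PBMC. Its ratio, given first, rests on a pool signal that was detected on 1 of the 10 arrays, so no fold is given for it. In the log2 ratio, the control arrays ran from 0.01 through a median of 0.11 to 0.35, and the 4 cold arrays were at 0.41, 0.41, 0.60 and 0.28. The cold arrays were therefore high, but 1 control array (replicate 5) lay above the lowest cold array, and the groups overlapped. The mean was 0.14 ± 0.12 for the control arrays (SD, n = 6) and 0.42 ± 0.13 for the cold arrays (SD, n = 4), a difference of 0.29 ± 0.09 (SE) on the log2 scale. In the fit across all 26303 genes tested, made with limma, its adjusted p = 0.110 by Benjamini-Hochberg. Unadjusted, limma gave p = 0.00855, and an exact permutation test over the 210 ways to split the arrays, two-sided, gave p = 0.0143, where 0.00476 is the smallest p it can give. All 4 cold arrays lay above the control mean. PM20D1 was among the genes that the study picked on these same arrays, so its direction is not independent evidence.

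The Cy3 intensity of PM20D1 showed a wider gap. It ran from 7.28 through 7.45 to 7.83 on the control arrays, and was 7.83, 8.31, 8.18 and 8.05 on the cold arrays. The groups did not overlap, and the narrowest gap was that between cold replicate 1 and control replicate 5. From 7.48 ± 0.20 (SD, n = 6) to 8.09 ± 0.21 (SD, n = 4) the difference was 0.61 ± 0.13 (SE) or 1.53-fold, with limma's adjusted p = 0.0385, and the exact permutation p was 0.00476, the smallest possible. With each array left out in turn, the difference in Cy3 stayed between 0.54 and 0.70 with an unadjusted p under 0.01 in 10 of 10 fits, and the adjusted p was under 0.05 in 3 of them, those without control replicate 5, control replicate 6 or cold replicate 1.

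The 4 PM20D1 probes, all for the target sequence XM_004756447.1 and each printed in 3 spots, rose by different amounts. Probe 1 was detected in Cy3 on 10 arrays and gave 0.96 on the log2 scale, with no overlap between the groups. Probe 3 gave 0.58 and also kept the groups apart. Probes 2 and 4 gave 0.32 and 0.59, and their groups overlapped. Probes of 1 gene share their target and are not replicates. On each cold array 100% of the 12 PM20D1 spots were above background in Cy3, against 25.0, 41.7 and 50% on control replicates 3, 6 and 2 and 91.7 or 100% on the other controls. The median Cy3 signal over local background was 97.5 to 160.5 in control and 150.5 to 212.75 in cold. The pool gave 9 to 23.0 in control and 12.0 to 49.0 in cold, and 5 of 72 spots on the control arrays and 14 of 48 on the cold arrays were above background, so that the ratio of PM20D1 rests on a pool signal close to background.

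The size of the ratio difference of PM20D1 and its side of the threshold depended on how the intensities were handled, and its direction did not. Over 26 alternatives in the ratio, limma's unadjusted p was no longer under 0.01 in 14, among them the processed signals, the block for slide position and 8 fits that leave out 1 array. In Cy3 this was so in 1 of 13, the 6 arrays with the brighter reference channel. The ratio difference was 0.66 with the scanner software's processed signals (limma's adjusted p = 0.203), 0.66 after median centring of each array, where the median of all genes fell by 0.43, and 0.95 on the authors' deposited value table (adjusted p = 0.233). The unadjusted p was under 0.01 in 2 of the 10 fits that leave out 1 array, those without control replicate 5 or cold replicate 4, with a difference of 0.23 to 0.34 over the 10 fits. Within slide position 1 the difference was 0.33 and within slide position 2 it was 0.20, neither with an unadjusted limma p under 0.01. Among the 6 arrays with the brighter reference channel (over 40% of spots above background in Cy5), 2 control and 4 cold, it was 0.24 in the ratio and 0.52 in Cy3, with limma's adjusted p = 0.774 and adjusted p = 0.276.

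**Figure D2:**
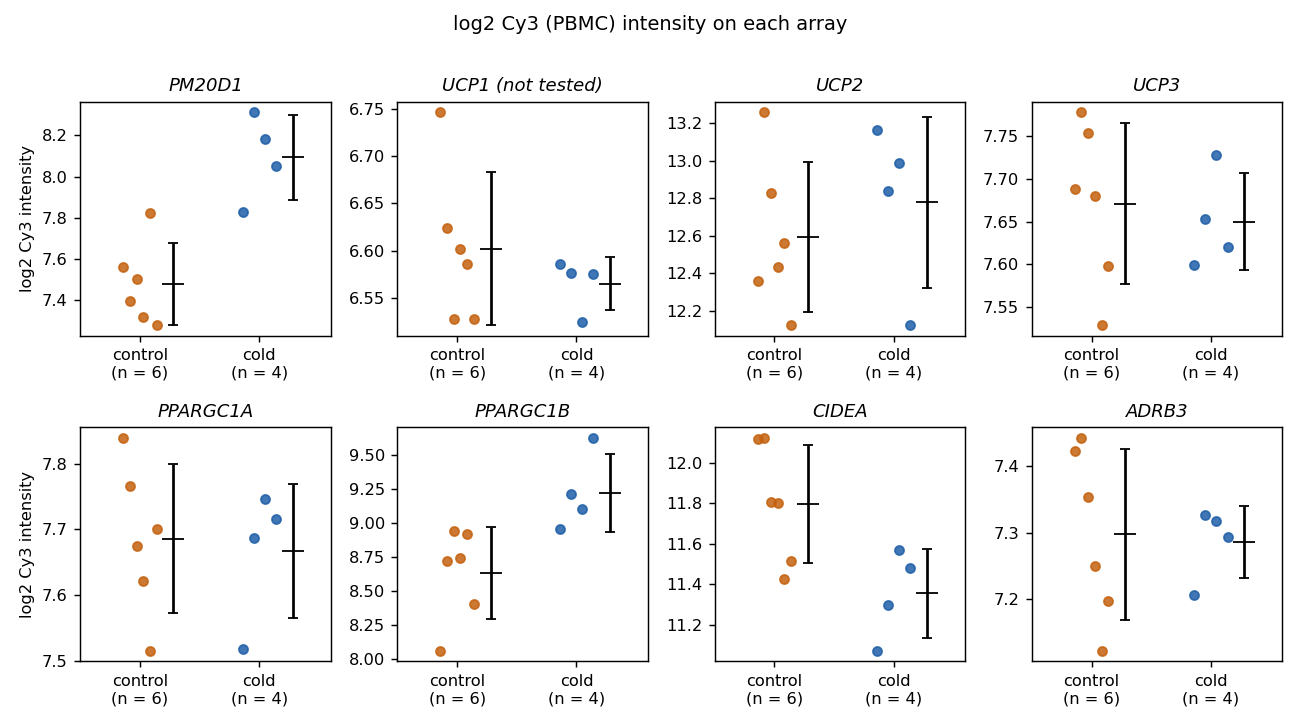
log2 Cy3 intensity (quantile normalized) of each gene in PBMC, 1 point per array for 6 control and 4 cold arrays, with the group mean and SD beside the points; the vertical scale differs between genes. PM20D1 and PPARGC1B show all 4 cold arrays above all 6 control arrays, CIDEA lies lower in cold with overlap, and the other 5 genes overlap.

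The 3 uncoupling proteins are carriers of 1 family with different homes: UCP1 in brown fat, UCP2 in many cells including those of the immune system, and UCP3 mainly in muscle. UCP1 (XM_004768463.1) was not well above background in PBMC. Only 1 of its 80 Cy3 spots was, on control replicate 1, whereas 35 of 80 Cy5 spots were. Its median Cy3 signal over local background was 54.5 to 72.5 on the control arrays and 50.75 to 67.5 on the cold arrays, and no fold is given, since both groups were below the scanner's call. On the control arrays its log2 ratio averaged -0.46 ± 0.37 (SD, n = 6), on the cold arrays -1.13 ± 0.51 (SD, n = 4), while its log2 Cy3 was 6.60 ± 0.08 and 6.57 ± 0.03. As its probes did not pass the filter, these values are a description without a call.

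UCP2 (XM_004768075.1) was bright in PBMC, with a median Cy3 signal over local background of 2792 to 5693.5 in control and 3104.75 to 7365.75 in cold, and its ratio was positive on every array. The ratio ran from 0.29 through 0.41 to 0.83 on the control arrays, and was 0.98, 0.72, 0.79 and 0.30 on the cold arrays. Cold replicate 4 lay among the lowest controls and control replicate 2 among the highest cold arrays, so the groups overlapped throughout. The difference in the ratio was 0.20 ± 0.15 (SE, 95% interval -0.15 to 0.55, exact permutation p = 0.281). In Cy3 it was 0.18 ± 0.24 (SE, 95% interval -0.36 to 0.73, exact permutation p = 0.50). The sign in the ratio turned to -0.72 after median centring, where that of all genes was -0.43, and to -0.25 on the deposited value table, and within slide position 2 it was -0.07. The interval in Cy3 leaves room for a change of either sign.

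UCP3 was carried by 2 target sequences (XM_004768062.1 and XM_004768063.1) of 4 probes each, of which 4 passed the filter, 2 from each sequence. It was dim in PBMC, with a median Cy3 signal over local background of 101.5 to 182.75 in control and 106 to 124.75 in cold. The UCP3 ratio ran from -2.62 through -1.33 to -0.84 on the control arrays, and was -2.92, -1.38, -2.48 and -2.40 on the cold arrays. Of the cold arrays, 3 lay low, as did control replicate 5, and cold replicate 2 lay among the other controls. The UCP3 ratio difference of -0.79 ± 0.39 (SE) had an exact permutation p = 0.119. Its Cy3 difference was -0.02 ± 0.08 (SE, 95% interval -0.20 to 0.16, exact permutation p = 0.695).

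**Figure D3:**
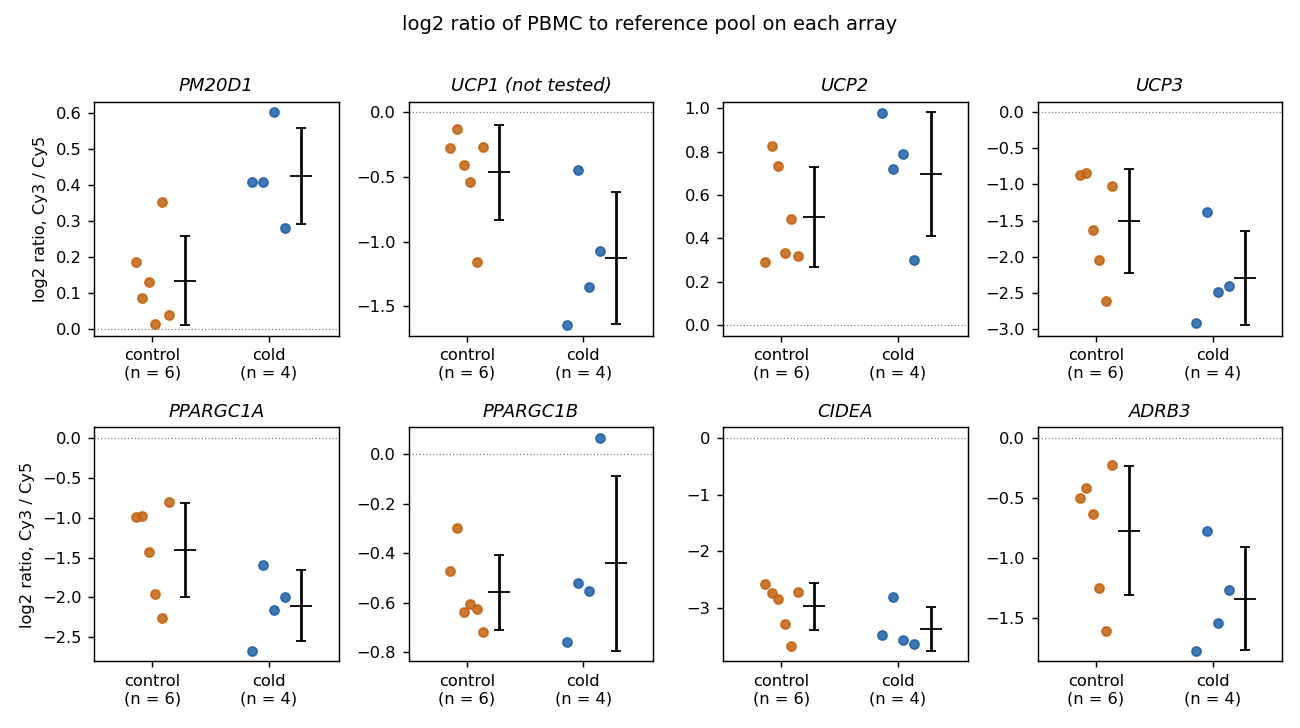
log2 ratio of Cy3 (PBMC) to Cy5 (reference pool) of each gene, 1 point per array for 6 control and 4 cold arrays, with the group mean and SD beside the points; the dotted line is at 0, the middle of spots of like brightness after loess, and the vertical scale differs between genes. PM20D1 and UCP2 lie above 0 on every array, CIDEA lies between -3.66 and -2.57, and the groups overlap in all 8 genes.

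The coactivators PPARGC1A and PPARGC1B, which have overlapping roles in mitochondrial biogenesis, gave different patterns in PBMC. PPARGC1B (XM_004737848.1) was detected on all 10 arrays, and its Cy3 intensity ran from 8.06 through 8.73 to 8.94 in control and was 8.96, 9.21, 9.10 and 9.62 in cold. The groups did not overlap, though cold replicate 1 (8.96) lay close to control replicate 3 (8.94). From 8.63 ± 0.34 (SD, n = 6) to 9.22 ± 0.29 (SD, n = 4) the difference was 0.59 ± 0.19 (SE) or 1.51-fold, with limma p = 0.00813, adjusted p = 0.0929 and an exact permutation p of 0.00952. PPARGC1B thus rose in Cy3 at the unadjusted threshold of 0.01 and not after adjustment, and 3 of the 10 fits without 1 array kept its p under 0.01, those without control replicate 3, control replicate 5 or cold replicate 1. Its 4 probes gave differences of 0.54 to 0.63.

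The ratio of PPARGC1B did not show this. It averaged -0.56 ± 0.15 on the control (SD, n = 6) and -0.44 ± 0.35 on the cold arrays (SD, n = 4). The difference of 0.12 ± 0.15 (SE, 95% interval -0.22 to 0.46) had an exact permutation p = 0.548, and the groups overlapped. The highest ratio, 0.07, was that of cold replicate 4, and without this array the difference turned to -0.05. It was -0.12 within slide position 1 and 0.39 within slide position 2.

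PPARGC1A was carried by 4 target sequences (XM_004762682.1, XM_004762683.1, XM_004762684.1 and XM_004762686.1) with 16 probes, of which 8 passed the filter, 2 from each sequence. The other 8 probes were detected in Cy3 on no array and in Cy5 on 2 to 5 arrays. The PPARGC1A ratio ran from -2.26 through -1.21 to -0.81 in control, and was -2.67, -1.59, -2.16 and -1.995 in cold. All 4 cold arrays lay below the control mean, with overlap. The difference of -0.70 ± 0.30 (SE) had limma's adjusted p = 0.186 and an exact permutation p = 0.0857. In Cy3 alone it was -0.02 ± 0.09 (SE, 95% interval -0.22 to 0.18, exact permutation p = 0.790).

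CIDEA (XM_004742686.1) was well above background in both channels in every spot. Its median signal over local background was higher in Cy3 than in Cy5 on 6 of the 10 arrays, 5 control and 1 cold, whereas its loess-normalized ratio was negative on all 10. The ratio ran from -3.66 through -2.78 to -2.57 in control, and was -3.48, -2.79, -3.56 and -3.63 in cold. Cold replicate 2 lay among the controls, and control replicate 5 was the lowest of all arrays. The ratio difference was -0.40 ± 0.23 (SE, exact permutation p = 0.143). After median centring it was -1.45, and on the deposited value table -0.91. The Cy3 intensity ran from 11.43 through 11.80 to 12.12 in control and was 11.07, 11.30, 11.57 and 11.48 in cold, where control replicates 5 and 6 overlapped with the cold arrays. From 11.80 ± 0.29 (SD, n = 6) to 11.36 ± 0.22 (SD, n = 4) the difference was -0.44 ± 0.16 (SE) or 0.736-fold, with limma p = 0.0161, adjusted p = 0.122 and an exact permutation p of 0.0476. The 4 probes gave Cy3 differences between -0.45 and -0.44. This missed limma's threshold of 0.01 with all arrays and passed it in 2 of the 10 fits without 1 array, those without control replicate 5 or 6, with a difference between -0.52 and -0.35 over the 10 fits.

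ADRB3 (XM_004758245.1), the receptor through which noradrenaline acts on fat cells, was dim in PBMC, with a median Cy3 signal over local background of 107.75 to 135.25 in control and 92.75 to 123.0 in cold. Its ratio ran from -1.61 through -0.57 to -0.23 in control and was -1.77, -0.77, -1.54 and -1.27 in cold. The groups overlapped, and the difference was -0.57 ± 0.28 (SE, exact permutation p = 0.105). In Cy3 the difference was -0.01 ± 0.09 (SE, 95% interval -0.21 to 0.19, exact permutation p = 0.867), with 2 cold arrays on each side of the control mean.

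Over the 7 genes that passed the filter, 1 had an unadjusted limma p under 0.01 in the ratio, PM20D1, against 8.64% of all 26303 genes tested, and none had an adjusted p under 0.05, as was the case for all genes in this fit (0.00%). At an unadjusted p under 0.05 there were 2, PM20D1 and PPARGC1A, against 24.7% of all genes, and no gene of the 7 had groups that did not overlap, against 5.22%. The median difference was -0.40, beside -0.01 over all genes. In Cy3, 2 of the 7, PM20D1 and PPARGC1B, had p under 0.01, against 9.87% of 26305 genes. With CIDEA, 3 had p under 0.05, against 24.9%, 1 had an adjusted p under 0.05, against 2.83%, and 2 had groups that did not overlap, against 7.02%. The median difference in Cy3 was -0.01, beside -0.04 over all genes. In Cy5 none of the 7 had p under 0.05, against 8.65% (1.79% with p under 0.01), none had groups without overlap, against 1.48%, and their differences lay between -0.07 and 0.10. With so few genes these counts describe the genes and set nothing apart.

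**Figure D4:**
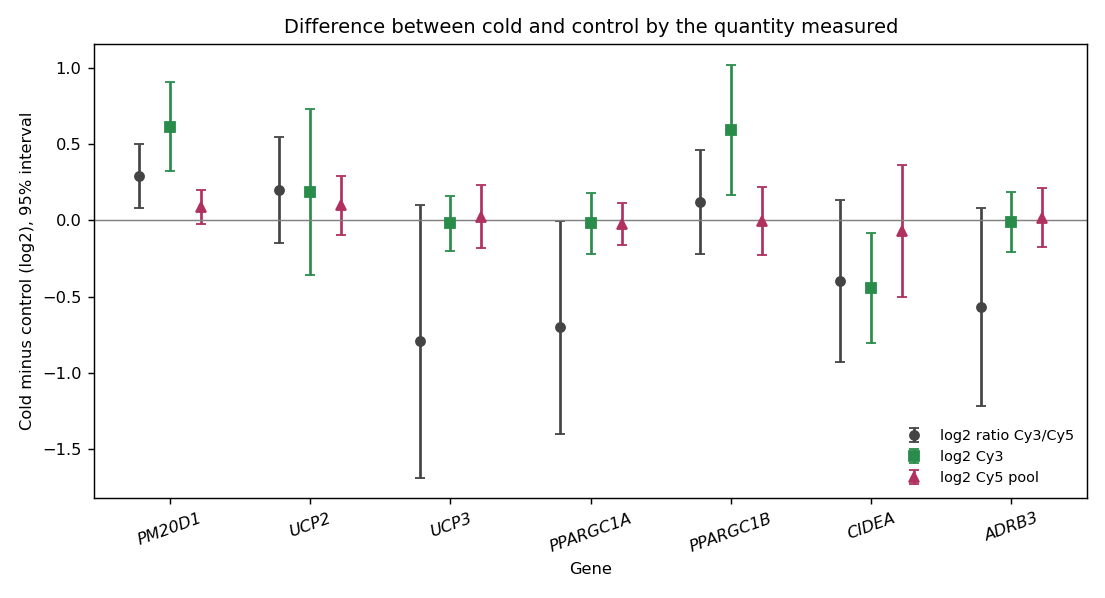
Cold minus control difference on the log2 scale with a 95% interval, for the ratio, for Cy3 (PBMC) and for Cy5 (reference pool), over 6 control and 4 cold arrays, in the 7 genes that passed the filter. The interval takes limma's SE with the residual degrees of freedom of each gene alone, and is wider than limma's own. In UCP3, PPARGC1A and ADRB3 the ratio lies 0.57 to 0.79 below 0 while the Cy3 difference lies between -0.02 and -0.01, and PM20D1 and PPARGC1B lie above 0 in Cy3.

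UCP3, PPARGC1A and ADRB3 had negative ratio differences and Cy3 differences of -0.02, -0.02 and -0.01. Their ratios, and that of UCP1, moved with the brightness of the reference channel. Over the 10 arrays, the ratio of ADRB3 correlated with the share of Cy5 spots well above background with Pearson's r = -0.99 (Spearman's rho = -0.98), PPARGC1A with r = -0.97 (rho = -0.98), UCP1 with r = -0.95 (rho = -0.98) and UCP3 with r = -0.94 (rho = -0.93). For CIDEA r was -0.88 (rho = -0.81), for PM20D1 0.72 (rho = 0.67), for UCP2 0.35 (rho = 0.38) and for PPARGC1B -0.13 (rho = -0.25). These are descriptions over arrays that share 1 reference pool, and the Cy5 share of an array enters both sides. Among the 6 arrays with the brighter reference channel the ratio differences were 0.03 for UCP3, 0.0026 for PPARGC1A, 0.11 for CIDEA and 0.09 for ADRB3, all with limma p above 0.6. The same arrays gave 0.05, 0.10 and 0.10 for UCP3, PPARGC1A and ADRB3 in Cy3. In Cy3, PM20D1 correlated with the same share with r = 0.55, PPARGC1B with r = 0.49 and UCP2 with r = 0.29. For CIDEA this r was -0.61, for PPARGC1A -0.60, for ADRB3 -0.48, for UCP3 -0.35 and for UCP1 -0.20. The part of the reference channel in these levels was not tested.

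**Figure D5:**
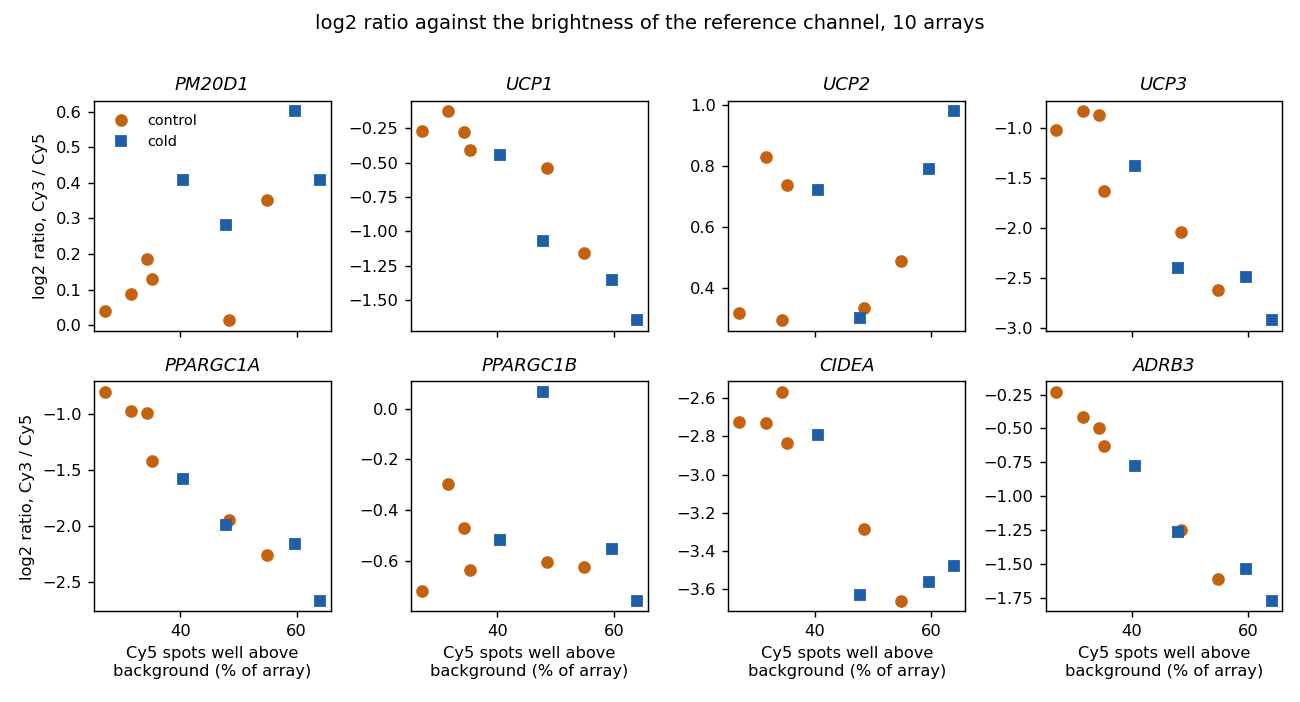
log2 ratio of each gene (vertical axis) against the percent of all spots on the array that were well above background in Cy5 (horizontal axis), 1 point per array, circles for 6 control and squares for 4 cold arrays. In ADRB3, PPARGC1A, UCP3 and UCP1 the control and cold arrays follow 1 falling line, with r between -0.99 and -0.94, whereas PPARGC1B shows no such line (r = -0.13).

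Lymphocyte and monocyte markers fitted the label of the samples, with 7 of 7 T cell, 4 of 5 B cell and 3 of 4 monocyte markers on the array detected in Cy3 on all 10 arrays. So were 7 of 7 neutrophil and 2 of 4 erythroid markers, of cells that a Ficoll gradient largely removes, and 5 of 5 platelet markers. Several marker lists also moved with the contrast and are given in Cy3, by their summed level (log2) and the unadjusted limma p of each marker. The 7 neutrophil markers on the array of 10 listed, among them S100A8, S100A9 and MPO, were all higher in cold, 5 of 7 with p under 0.01 (over all genes in Cy3, 9.87% had p under 0.01 and 42.9% were higher in cold at any p), and their summed level was 16.3 to 17.8 in control and 18.2 to 18.6 in cold, without overlap. Of the monocyte markers, 4 of 4 were higher (2 with p under 0.01, CD14 and CD163, and 15.3 to 16.0 against 15.8 to 16.8, overlapping), and 7 of 7 T cell markers were lower (5 with p under 0.01, and 15.9 to 16.5 against 14.7 to 15.9, overlapping). The 4 erythroid markers were all lower in cold (2 with p under 0.01, and 13.3 to 16.1 against 10.5 to 12.6, without overlap), while the B cell, NK and platelet sums overlapped and had no marker with p under 0.01 in Cy3. The 5 platelet markers were all higher in cold, however, and in the ratio 2 of them, GP9 and TREML1, had p under 0.01. In the ratio there were also 4 neutrophil markers, and 1 each of the T cell, monocyte and erythroid markers, with p under 0.01, against 8.64% of all genes. Over the 10 arrays the Cy3 level of PM20D1 correlated with the summed neutrophil level with r = 0.81, with the monocyte level with r = 0.79, with the T cell level with r = -0.72, with the erythroid level with r = -0.82 and with the level of the fat cell markers below with r = -0.68. For PPARGC1B these were 0.54, 0.56, -0.59, -0.83 and -0.70. The part of these cell types in the levels of PM20D1 and PPARGC1B was not tested.

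Among 8341 named genes, those most like PM20D1 in their ratio over the 10 arrays included CD300E (Pearson's r = 0.97) and SQOR (r = 0.96). CD300E is a receptor of monocytes. For UCP2 they were NSF (r = 0.94), PHC1 (r = 0.91) and PLBD2 (r = 0.89), and for PPARGC1B they were WARS1 (r = 0.90), PSMA2 (r = 0.90) and IL4I1 (r = 0.87). For the genes that followed the reference channel, the likeness was closer: SFTPD, TMEM135 and CCKBR for UCP3, CRYAB, PRSS27 and AQP1 for PPARGC1A and TGM1, PFKM and MYBPC1 for ADRB3, all with r of 0.99, and RTL9, PTGER3 and CLDN3 for CIDEA with r of 0.98 to 0.99. These correlations are descriptions over arrays that share the groups and the pool.

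Markers of fat cells were present in these PBMC samples. ADIPOQ, the fat cell hormone adiponectin, the fatty acid carrier FABP4, the lipid droplet protein CIDEC and the lipase LIPE were detected in Cy3 on all 10 arrays. Their summed Cy3 level was 13.1 to 13.6 in control and 12.8 to 13.0 in cold, without overlap, with 4 of 4 lower and 2 of 4, FABP4 and CIDEC, with p under 0.01, against 4.36% of all genes lower at this threshold. The Cy3 level of CIDEA correlated with this sum with r = 0.95 over the 10 arrays. LEP and PLIN1, further defining markers of fat cells, were not analysed here. Of the 6 liver markers, APOB and FGB were detected in Cy3 on no array, ALB and TTR on 1, APOA1 on 9 and SERPINA1 on all 10, the last at a log2 Cy3 level of 13.2 in control and 13.4 in cold. The part of fat cell RNA in the level of CIDEA was not tested.

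A wider list of 122 thermogenesis symbols, from the adrenergic and cyclic AMP pathway to lipid droplets, had 68 on the array and 56 that passed the filter. In the ratio, 2 rose and 1 fell at an unadjusted limma p under 0.01, none with an adjusted p under 0.05, beside 5.21% higher and 3.43% lower over all genes. PRKAR2B, a regulatory subunit of the cyclic AMP-dependent kinase that ADRB3 activates in fat, averaged -0.05 ± 0.19 on the control (SD, n = 6) and 0.53 ± 0.22 on the cold arrays (SD, n = 4), a difference of 0.59 ± 0.13 (SE, exact permutation p = 0.00952, limma's adjusted p = 0.0705). It also rose in Cy3, by 0.71 ± 0.16 (SE, adjusted p = 0.0471), whereas after median centring its ratio difference was -0.04, with -0.43 over all genes. PM20D2, a peptidase of the family of PM20D1, rose by 0.35 ± 0.10 (SE, exact permutation p = 0.00476, the smallest possible) in the ratio and by 0.64 ± 0.16 (SE, adjusted p = 0.0520) in Cy3, and the groups overlapped in neither. FNDC5, the precursor of irisin, fell by 0.51 ± 0.16 in the ratio (SE, exact permutation p = 0.0238) with overlapping groups, and its Cy3 difference was -0.55 (adjusted p = 0.370). With each array left out in turn, limma's unadjusted p of the ratio stayed under 0.01 in 10 of 10 fits for PRKAR2B, in 7 for PM20D2 and in 4 for FNDC5. Over all alternatives the p of FNDC5 was no longer under 0.01 in 16 of 26, among them median centring, the deposited table, the median over probes, the position block and the methods' t-test, that of PM20D2 in 10 of 27 and that of PRKAR2B in 5 of 27, which were median centring, the deposited table (0.37), the processed signals (0.55) and the fits within slide position 1 (0.44) and 2 (0.73).

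Genes of the same enzyme family and carriers gave a mixed picture. Of the 3 N-acyl amino acid and M20 peptidase genes tested, 1 had p under 0.01 in the ratio, PM20D2, against 8.64% of all genes, and 2 in Cy3, against 9.87%, PM20D2 and CNDP2. CNDP2, a dipeptidase named after its values were seen, was 0.59 ± 0.16 (SE, adjusted p = 0.0726) higher in Cy3 in the cold arrays and differed by 0.45 in the ratio (exact permutation p = 0.0238). All 3 mitochondrial carriers tested had negative ratio differences, where 48.0% of all genes were positive, and none had p under 0.01. The lowest p among them was that of SLC25A27, an uncoupling-protein relative, whose ratio difference was -0.30 ± 0.10 (SE, exact permutation p = 0.00476, no overlap) with a Cy3 difference of -0.04. On the deposited value table that ratio difference was 0.12. Of 11 transcription genes tested, none passed in the ratio and 1 in Cy3, against 9.87% of all genes. This was CTBP2, with a Cy3 difference of 0.49 ± 0.16 (SE, adjusted p = 0.0992). TFAM, which maintains mitochondrial DNA, had a ratio difference of -0.25 (exact permutation p = 0.00476, no overlap), and CTBP2, a corepressor, had one of 0.43 (p = 0.0333). Of 8 adrenergic and cyclic AMP genes, PRKAR2B passed, and the next, the stress kinase MAPK14, had 0.56 ± 0.18 (SE, exact permutation p = 0.0143). After median centring the differences of CTBP2 and MAPK14 were -0.17 and -0.35.

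Of 17 lipid droplet and fuel genes tested, 11 had negative and 6 positive ratio differences, where 48.0% of all genes were positive, and none had p under 0.01, against 8.64%. Cy3 did not share this lean: the median difference of these genes was -0.08 in the ratio and 0.04 in Cy3, beside -0.01 and -0.04 over all genes. In the ratio, the lipases MGLL and LIPE had -0.37 (exact permutation p = 0.0286) and -0.33 (p = 0.0476). FABP4 and CIDEC had -0.29 (exact permutation p = 0.0190) and -0.56 (p = 0.0429). In Cy3, FABP4 fell by 0.63 ± 0.15 (SE, adjusted p = 0.0487) and CIDEC fell by 0.35 ± 0.11 (SE, adjusted p = 0.0862), and both, like LIPE, are also on the fat cell list above. CD36, a fatty acid transporter that monocytes and platelets also carry, differed the other way, by 1.32 ± 0.47 (SE, exact permutation p = 0.0524) in the ratio and 1.35 in Cy3, and after median centring its ratio difference was 0.25. The same centring gave -1.14 for MGLL, -1.01 for LIPE, -1.43 for FABP4 and -1.47 for CIDEC. In Cy3 the wider list had 7 genes higher and 3 lower with p under 0.01, beside 5.51% higher and 4.36% lower over all genes. The 3 lower genes were FABP4, CIDEC and FGF21, the last named after its values were seen. FGF21 differed by -1.32 ± 0.40 (SE, adjusted p = 0.0879) in Cy3 and by -0.61 in the ratio. With an adjusted p under 0.05 there were 3: PRKAR2B, FABP4 and TLCD4, the last named after its values were seen, with 0.88 ± 0.21 (SE) in Cy3 and 0.16 in the ratio. The study lists TLCD4, under its older symbol TMEM56, among the genes it picked on these same arrays. The direction of TLCD4 is therefore not independent evidence. The median difference of the 56 genes was -0.09 in the ratio and 0.07 in Cy3.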

How the data were processed

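Total RNA of PBMC was hybridised to custom 2-colour Agilent ferret arrays (Cy3 for 1 ferret, Cy5 for a pool), 10 arrays on separate slides. The scanner files deposited by the authors give intensity values per spot from Agilent Feature Extraction 10.7.3.1 (median signal and local background, with no mean signal, so the median was used), and the authors' value table holds 1 log2 value per target sequence. Set against the scanner signals, its differences between arrays were those of log2 Cy3 less log2 Cy5, before background correction and averaged over spots, with a slope of 1. Its column medians were 7.87 to 8.78, and how it was centred stays unknown.

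Intensities were corrected by normexp (offset 50) on all 416280 spots, controls and outlier spots were left out, and log2 ratios were normalized within arrays by loess (span 0.3, 4 iterations) in limma 3.58.1 under R 4.3.3. Spots were averaged to probes and probes to genes. Probes entered if at least 50% of their spots passed the scanner's Cy3 call on at least 4 arrays. Of 45328 target sequences, 21104 were named through RefSeq (ASM1176430v1.1), giving 12918 genes; others kept their own identifier. Cold was compared with control by lmFit and eBayes (p adjusted by Benjamini-Hochberg across the whole table), and single genes also by an exact permutation test. Cy3 and Cy5 alone were background-corrected alike and quantile normalized. The fit was tested on simulated data. The number of arrays limits the precision.

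The genes and lists were chosen with earlier results of these data known. Named from the wider list were the genes with an unadjusted p under 0.01 and then those of lowest p up to 12 (exceptions are marked in the text), and, for likeness, the 3 named genes with the highest Pearson's r, of which 1 is not reported here. Alternatives were other background corrections, centring, channels, filters and summaries of probes, the deposited table, the methods' t-test, array weights, blocks for slide position and replicate number, and leaving out each array; fits within slide positions, on the 6 arrays with the brighter reference channel, and Cy3 alone with arrays left out or with the position block were chosen after seeing the data.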

Additional observations from a re-analysis of the deposited data

How the results depend on the processing

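PM20D1 kept a positive difference in 26 alternatives in the ratio (0.20 to 0.95, with p no longer under 0.01 in 14) and in 13 in Cy3 (0.52 to 0.70, in 1). The share of all genes with p under 0.01 moved with the setting too and is given in parentheses. The count among the 7 genes, 1 in the ratio (8.64%), was 0 with the processed signals (5.72%), with slide position as a block (7.88%), within slide position 1 (3.88%) or 2 (1.54%) and on the 6 arrays with the brighter reference channel (1.3%). In Cy3 it was 2 (9.87%), 2 with the position block (8.45%) and 0 on those 6 arrays (4.26%). Leaving out 1 array, it was 0 to 2 in the ratio (4.85 to 12.9%, and 2 without control replicate 5, with PPARGC1A, at 12.7%) and 1 to 3 in Cy3 (6.13 to 12.7%, and 3 without control replicate 5 at 10.3%). The wider list's count of 3 was 6 without background subtraction (8.19%), with array weights (11%) or with target sequences (9.2%), 5 without the filter (6.95%), 1 after median centring (4.42%), within either position and on the 6 arrays, and 10 in Cy3. With 1 array left out it was 1 (without control replicate 1 or 2, 5.42 and 5.72%) to 10 (without control replicate 5, 12.7%). With so few genes these counts describe no change particular to them. The genes detected in Cy3 on all arrays were 7 with 1 spot or a doubled local background as the criterion, and in Cy5 they were 5 with 1 spot and 1 with all spots. The cause of these changes was not tested.

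Signs turned after median centring for UCP2 (-0.72), PRKAR2B (-0.043), MAPK14 (-0.35) and CTBP2 (-0.17), and on the deposited table for UCP2 (-0.25) and SLC25A27 (0.12). They turned without cold replicate 4 for PPARGC1B (-0.051, with up to 0.22 without cold replicate 1), within slide position 1 for PPARGC1B (-0.12) and within position 2 for UCP2 (-0.068). On the 6 arrays they turned for UCP3 (0.033), PPARGC1A (0.0026), CIDEA (0.11) and ADRB3 (0.092), and in Cy3 for UCP3 (0.046), PPARGC1A (0.10) and ADRB3 (0.10). With 1 array left out in Cy3, UCP3 reached 0.00049, PPARGC1A 0.011 and 0.030, and ADRB3 0.0131, 0.0145 and 0.017. With the replicate number as a block, the count was 0 for the 7 genes and 6 for the wider list (9.35% of all genes), and PM20D1 had 0.32. Arrays of the same number had correlations of -0.30, 0.54, 0.10 and -0.19. These were not taken on the plain array levels, which correlated at 0.76 to 0.94. The highest correlation with an array of another number was 0.49, 0.56, 0.25 and 0.12. So few values cannot exclude a pairing by number, and the main fit assumed none. On the deposited table, ratio differences were smaller for UCP3 (-0.26), PPARGC1A (-0.14) and ADRB3 (-0.18), as well as MAPK14 (0.14), PRKAR2B (0.37), CTBP2 (0.21) and CD36 (0.85), and larger for PPARGC1B (0.40), PM20D2 (0.82), TFAM (-0.45), FABP4 (-0.84), CIDEC (-0.92), MGLL (-0.62) and LIPE (-0.51). The number of arrays and the weak pool signal limit the ratios of dim genes.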
